A study of Homo sapiens with 2 samples.

Results

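The genes of the proteasome were followed in the RNA sequencing of cells labelled THP1, with and without bortezomib (bort). The proteasome is the target of the drug, and the genes were taken by name. The members are the listed genes whose symbol starts with PSM, a letter from A to G and a digit, together with POMP and ADRM1. PSMC3IP, a gene of meiotic recombination, and names with a hyphen were left out. A total of 47 of the 10987 listed genes met this rule, 7 alpha and 9 beta subunits of the 20S core, 6 ATPase and 15 non-ATPase genes of the 19S particle, 5 activator and PI31 genes, and 5 assembly chaperones. The rule uses names only and no measured value.

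The table compared 2 libraries, 1 from THP1 cells labelled as treated with bort for 24 h and 1 from THP1 cells labelled untreated. THP1 is a human monocytic leukaemia line that carries the MLL-AF9 fusion, and bort is a reversible inhibitor of the proteasome. The dose of bort behind the sequenced library and any vehicle in the control are not given in the labels. With 1 library per condition, a difference between the libraries has no replicate check, no test was possible, and an effect of bort cannot be told apart from any other difference between the 2 cultures. Values are FPKM, fragments scaled to transcript length and to the mapped fragments of the library, which allow levels of different genes to be compared within a library. Differences are given as log2(FPKM + 1) in the library labelled bort-treated minus that in the library labelled untreated, on which low FPKM values give smaller differences than their ratio would. How many reads stand behind a value is not known, and counting error is therefore not given.

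The markers of the labelled cell line were looked up first. Of 18 monocytic and myeloid markers 8 were listed, the highest of them LYZ at 7.61 FPKM in the untreated library, and CD14, CSF1R and MPO were among those not listed. Of 18 erythroid markers 17 were listed, with HBG1 at 1487 FPKM untreated and 1536 FPKM after bort. This profile goes against the labelled lineage, and the libraries are therefore called by their labels. The summed FPKM of the listed erythroid markers was 5136 untreated and 4483 after bort, and that of the listed monocytic markers 26.2 and 65.4. The median difference of the erythroid markers was -0.86 and that of the monocytic markers 0.69, and with the trend of the differences with GC content removed they were -0.21 and 0.94. Some of the listed monocytic markers reached 0.5 FPKM in 1 library only, most of these in the bort-treated one. A filter at that level would list them only through that library, so the monocytic median is not read as a shift. The part of these lineage genes in the differences of the proteasome genes was not tested.

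The 26S proteasome degrades proteins that carry chains of ubiquitin. Its 20S core is a barrel of stacked rings, the outer rings made of alpha subunits that gate the entrance and the inner rings of beta subunits, of which PSMB5, PSMB6 and PSMB7 carry the active sites. The 19S particle sits on the barrel. Its base holds a ring of ATPases that unfold the substrate, and its lid holds the enzyme that takes off the ubiquitin. When proteasome activity is low, the transcription factor NRF1 (gene NFE2L1) escapes degradation, is processed and activates the genes of proteasome subunits, a feedback known as the bounce-back response. In cells exposed to interferon, PSMB8, PSMB9 and PSMB10 can take the place of the constitutive catalytic subunits and form the immunoproteasome.

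Most genes of the assembled particle were higher in the library labelled bort-treated, and the genes around it went both ways. Of the 47 members 36 were higher and 11 lower, with a median difference of 0.43 against 0.0049 over all listed genes. Among all listed genes 5526 were higher and 5461 lower. Of the 32 members in the constitutive core and the 19S particle, 30 were higher, with a median of 0.50. Of the other 15 genes, which are the immunoproteasome subunits, the activators, PI31 and the chaperones, 6 were higher and 9 lower, with a median of -0.29. This count and median include PSMB9, whose own value is the median. PSMB9 lay under 1 FPKM, and its direction is not read as a result below. With the GC trend removed, the median of the 15 genes was -0.24. Their shares past 1.5-fold, 20% higher and 26.7% lower, lay close to the 20.8% and 21.6% of all listed genes. By 1.5-fold or more, 16 members were higher, where 20.8% of all genes were, and 4 were lower, where 21.6% of all genes were. Thus 34.0% of the members were past 1.5-fold upwards and 8.51% downwards. By 2-fold or more, 3 members were higher beside 8.08% of all genes, and 3 were lower beside 10.2% of all genes. The share of members past 2-fold, 6.38% in each direction, was below that of all genes. The differences of the proteasome genes were thus mostly moderate and in 1 direction. When the trend of the differences with GC content was removed, 34 members were higher and the median was 0.30.

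**Figure D1:**
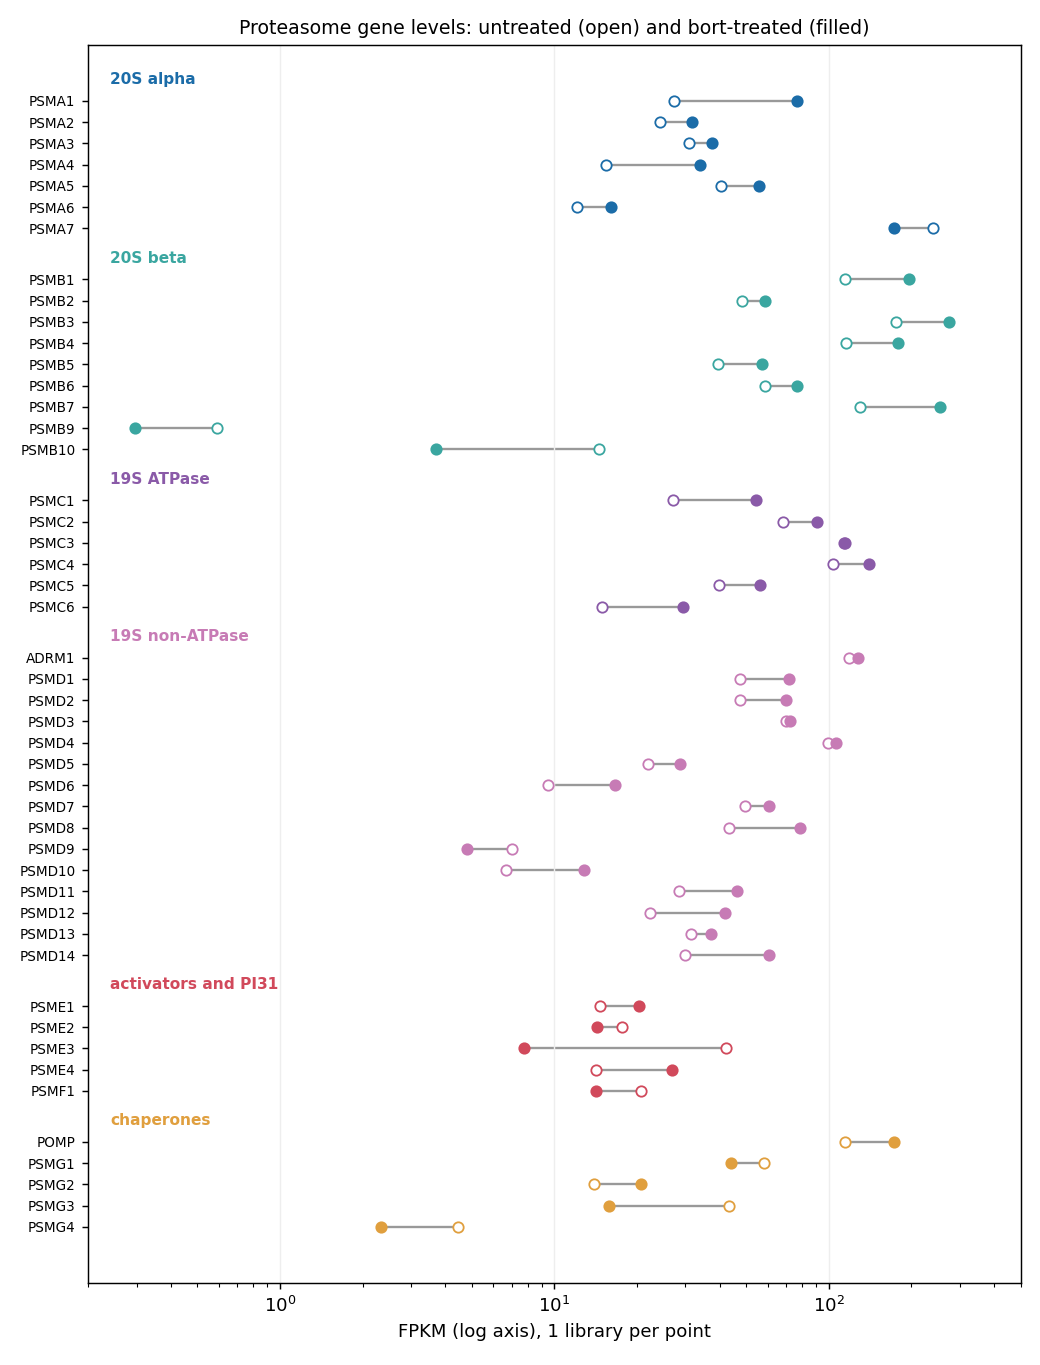
FPKM of the 47 proteasome genes on a log axis, with 1 row per gene, grouped by role; open circles are the library labelled untreated and filled circles the library labelled bort-treated, 1 library each. Filled circles lie to the right of open ones for 30 of the 32 core and 19S genes, and to the left for PSME3, PSMB10, PSMB9, PSMG3 and PSMG4 among others.

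The summed FPKM of the members was 2434 in the untreated and 3183 in the bort-treated library, which is 1.16% and 1.44% of the FPKM of all listed genes. These are abundant transcripts. Of the 47 members, 24 lay among the top 10% of all genes by FPKM in the untreated library and 31 after bort, and 40 had at least 10 FPKM in both. Only PSMB9 lay under 1 FPKM. The order of the members was similar in the libraries, with a Spearman correlation of 0.89 across the 47 members, which share the same 2 libraries and are not replicates. The level of a member in the untreated library was hardly related to its difference (Spearman correlation of -0.021 over the same genes).

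The alpha subunits form the outer rings of the core. PSMA1 was at 27.3 FPKM in the untreated and 76.5 FPKM in the bort-treated library, a 2.80-fold higher level and the largest positive difference of any member, 1.45 on the log2 scale. Over all genes, 286 had a larger positive difference than PSMA1. PSMA4 was at 15.4 and 33.8 FPKM, 2.20-fold higher. These were the only alpha genes past 1.5-fold. PSMA5 went from 40.4 to 55.8 FPKM, PSMA6 from 12.1 to 16.1 FPKM, PSMA2 from 24.4 to 31.9 FPKM and PSMA3 from 31.0 to 37.5 FPKM. Their log2 differences lay between 0.26 and 0.45. With the GC trend removed, PSMA2 and PSMA3 changed direction, to -0.078 and -0.17. PSMA7 stood apart as the only lower alpha gene and, at 240.0 FPKM, the most abundant member of the untreated library. In the bort-treated library it was at 173 FPKM, a log2 difference of -0.47. The median of the 7 alpha genes was 0.38, and 0.13 with the GC trend removed. PSMA1 overlaps the gene AC018523.2 on the same strand, listed at 1.93 and 2.19 FPKM, so the division of fragments between them is uncertain. PSMA8, an alpha subunit of the testis, is not listed and was not analysed here.

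The beta subunits form the inner rings. PSMB7, which carries the trypsin-like activity, was at 130.4 FPKM in the untreated and 254 FPKM in the bort-treated library, a 1.95-fold higher level. PSMB5, whose chymotrypsin-like site is the main site of bort, was at 39.6 and 57.3 FPKM, 1.45-fold higher. PSMB6, with the caspase-like activity, was at 58.4 and 76.6 FPKM, 1.31-fold higher. The 3 constitutive catalytic genes were thus all higher, and PSMB5 had the lowest level of them in each library. Among the 4 constitutive beta genes without an active site, PSMB1 went from 115 to 197 FPKM, PSMB3 from 176 to 273 FPKM and PSMB4 from 115 to 179 FPKM, all past 1.5-fold. PSMB2 went from 48.2 to 58.6 FPKM, a log2 difference of 0.28. In the bort-treated library PSMB3 was the most abundant member.

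The immunoproteasome gene PSMB10 was lower where the constitutive catalytic genes were higher. PSMB10, the inducible counterpart of PSMB7, was at 14.6 FPKM in the untreated and 3.72 FPKM in the bort-treated library, a 3.92-fold lower level and a log2 difference of -1.72. Over all genes, 228 had a more negative difference. The GC content of PSMB10 was 61.9%, and with the GC trend removed its difference was -1.25. PSMB9, the counterpart of PSMB6, was at 0.588 and 0.296 FPKM, levels so low that its difference on the log2(FPKM + 1) scale was -0.29 and depended on the pseudocount (-0.99 with none). PSMB9 reached 0.5 FPKM in the untreated library only. A filter at that level would list it only through the library where it was higher, so its direction is not read as a result. PSMB8, the counterpart of PSMB5, is not listed and was not analysed here, nor was PSMB11 of the thymus. PSMB7 had 8.96 times the FPKM of PSMB10 in the untreated library and 68.3 times in the bort-treated library. Of the summed FPKM of the 5 listed catalytic genes, PSMB9 and PSMB10 held 6.22% in the untreated and 1.02% in the bort-treated library. PSMB10 overlaps AC040162.1 on the same strand, which was listed at 2.57 and 0.537 FPKM and so was lower as well.

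The ATPases form the ring of the 19S base. PSMC1 was at 27.0 FPKM in the untreated and 54.1 FPKM in the bort-treated library, and PSMC6 at 14.9 and 29.3 FPKM. These were the only ATPase genes past 1.5-fold, with log2 differences of 0.98 and 0.94. PSMC5 went from 39.8 to 56.2 FPKM, PSMC4 from 104 to 140.4 FPKM and PSMC2 from 68.2 to 90.3 FPKM, with log2 differences from 0.40 to 0.49. PSMC3 stayed nearly level, at 114 FPKM in the untreated and 113 FPKM in the bort-treated library, a log2 difference of -0.015 that turned positive in 3 of 8 other settings. The genes with the lowest levels in the untreated library, PSMC6 and PSMC1, had the largest differences, and the ATPase levels lay closer together in the bort-treated library. PSMC1 has 13 pseudogenes named after it in GENCODE 29, more than any other member, so fragments of these near-copies could have been counted with it.

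The 8 members of the 19S lid were all higher, with a median of 0.72. SEM1, a lid subunit that the name rule does not take, is given below with the associated factors. PSMD14, the metalloprotease that removes ubiquitin from the substrate, was at 29.9 FPKM in the untreated and 60.8 FPKM in the bort-treated library, 2.03-fold higher. It was the only 19S member past 2-fold on the log2(FPKM + 1) scale, at 1.0003. Its difference was 0.993 when scaled by the median of ratios and 0.755 with the GC trend removed. PSMD12 was at 22.2 and 41.9 FPKM, PSMD8 at 43.3 and 78.7 FPKM, PSMD6 at 9.44 and 16.6 FPKM and PSMD11 at 28.4 and 46.2 FPKM. These lid genes were all past 1.5-fold. PSMD7, the partner of PSMD14, went from 49.7 to 60.6 FPKM and PSMD13 from 31.5 to 37.2 FPKM. PSMD3 was nearly level, at 70.0 and 72.1 FPKM. The lid thus held PSMD12 at 1.88-fold beside PSMD3 at 1.03-fold.

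The 4 non-ATPase genes of the base were all higher, with a median of 0.33, and with the GC trend removed the medians of the base and lid genes were 0.46 and 0.49. PSMD1 was at 47.7 FPKM in the untreated and 71.4 FPKM in the bort-treated library, and PSMD2, the other large scaffold of the base, at 47.5 and 69.8 FPKM. The ubiquitin receptors PSMD4, at 99.6 and 106 FPKM, and ADRM1, at 119 and 128 FPKM, were nearly level, with log2 differences of 0.090 and 0.11. ADRM1 has the highest GC content of the members, 64.3%, and its difference was 0.70 with the GC trend removed. A further 3 genes with PSMD names are chaperones of base assembly and are not part of the finished particle. PSMD10 (gankyrin) was at 6.68 and 12.8 FPKM, PSMD5 at 22.0 and 28.7 FPKM, and PSMD9 at 7.03 and 4.82 FPKM. PSMD9 was the only lower gene of the 15 in the non-ATPase group, whose median was 0.55.

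Among the activators, the gene with the largest difference of all members was lower. PSME3 encodes PA28 gamma, the nuclear activator that opens the core without ATP or ubiquitin. It was at 42.1 FPKM untreated and 7.78 FPKM after bort, a 5.42-fold lower level and a log2 difference of -2.30. Only 67 of all genes had a more negative difference. Its GC content of 50.2% is close to the median of all genes, 50.1%, and with the GC trend removed the difference was -2.27. The gene BECN1 overlaps PSME3 on the other strand and was at 9.65 and 7.28 FPKM. The subunits of the interferon-responsive PA28 went in opposite directions, PSME1 from 14.6 to 20.4 FPKM and PSME2 from 17.7 to 14.3 FPKM, and neither was past 1.5-fold. PSME4, which encodes PA200, was at 14.2 and 26.8 FPKM, 1.88-fold higher. PSMF1 encodes PI31, named for its inhibition of the core in vitro, and was at 20.7 and 14.2 FPKM. PSME3 held 56.6% of the summed FPKM of the 3 PA28 genes in the untreated library and 18.3% after bort. It was the most abundant activator gene of the untreated library and the least abundant of the other.

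The assembly chaperones also divided. POMP, which helps the beta subunits join and is consumed by the finished core, was at 115 FPKM in the untreated and 174 FPKM in the bort-treated library, 1.52-fold higher. Its GC content was the lowest of the members, 34.3%, and with the GC trend removed its log2 difference of 0.60 became -0.059. The chaperones of the alpha ring are PSMG1 to PSMG4, which act in pairs. PSMG1 was at 58.3 and 44.1 FPKM, whereas its partner PSMG2 was at 14.0 and 20.6 FPKM. PSMG3 was at 43.3 and 15.8 FPKM, a 2.73-fold lower level, and its partner PSMG4 at 4.47 and 2.33 FPKM, 1.92-fold lower. The log2 difference of PSMG3 was -1.40, and -1.03 with the GC trend removed. The pair of PSMG3 and PSMG4 was thus lower together, and PSMG1 and PSMG2 were not. The summed FPKM of the 4 PSMG genes was 120 in the untreated library and 82.8 in the bort-treated library, while that of the constitutive core, which they help to build, was 1073 and 1520. The median of the 5 chaperone genes was -0.39.

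**Figure D2:**
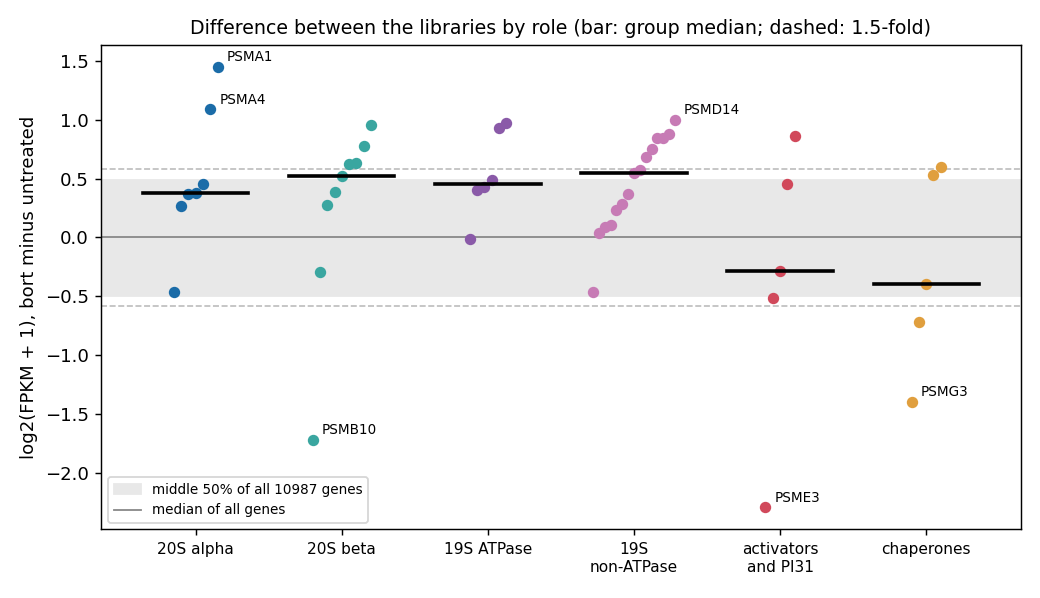
Difference of log2(FPKM + 1), bort minus untreated, for each of the 47 genes by role; black bars are group medians, the grey band holds the middle 50% of all 10987 genes and dashed lines mark 1.5-fold. The medians are 0.38, 0.52, 0.46 and 0.55 for the core and 19S groups, and -0.29 and -0.39 for activators and chaperones, and the genes past 2-fold are named.

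**Figure D3:**
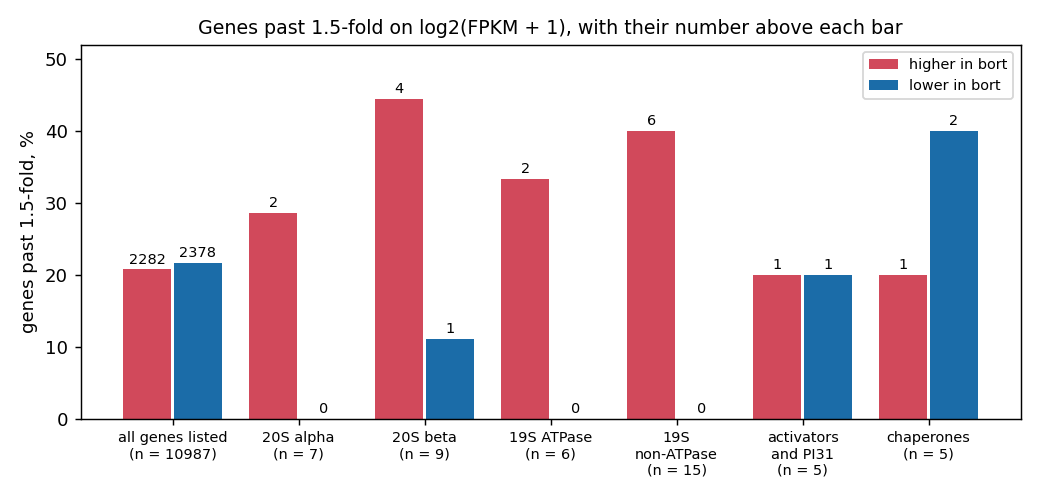
Percent of genes past 1.5-fold higher (red) and lower (blue) in each role group, beside all listed genes at 20.8% and 21.6%; numbers above the bars are genes. No alpha, ATPase or non-ATPase gene was lower by 1.5-fold, and the groups hold between 5 and 15 genes.

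Subunits of a particle are built into it in equal numbers, so the evenness of their transcripts was described. The standard deviation of log2(FPKM + 1) over the 14 constitutive core genes was 1.29 in the untreated and 1.24 in the bort-treated library. The lowest was PSMA6 in each library, at 12.1 and 16.1 FPKM, and the highest was PSMA7 in the untreated and PSMB3 in the bort-treated library. The highest core gene had 19.8 and 17.0 times the FPKM of the lowest. Over the 18 members of the 19S particle the standard deviation was 0.99 in the untreated and 0.76 in the bort-treated library. These leave out the lid subunit SEM1, at 6.37 and 15.4 FPKM, which the name rule does not take. The lowest of the 18 members was PSMD6 in each library. The highest had 12.6 times the FPKM of PSMD6 in the untreated and 8.46 times in the bort-treated library. The levels of these 19S members were therefore more even in the library labelled bort-treated, while those of the core hardly differed in spread.

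The differences of the members followed the GC content of their transcripts as those of all genes did. The Spearman correlation of GC content and log2 difference was -0.49 over the 47 members and -0.47 over the 10907 genes with a transcript in GENCODE 29. The 16 members higher by 1.5-fold or more had a median GC content of 44.3%, and the 11 lower members one of 51.7%. With the GC trend removed, 15 members were higher and 3 lower by 1.5-fold, beside 1959 and 1921 of all listed genes. PSME3 and PSMA1 stayed the genes at the ends of the range, at -2.27 and 1.201. The part of GC content in the other differences was not tested.

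Other genes that act with the proteasome were read beside the members. All 16 genes of a list of proteasome-associated factors were listed, with 11 higher and 5 lower and a median of 0.47. By 1.5-fold or more, 7 were higher (43.8%, beside 20.8% of all listed genes) and 2 lower (12.5%, beside 21.6%). ZFAND2A, a zinc finger protein of the proteasome that is induced by stress, was at 3.90 FPKM in the untreated and 24.1 FPKM in the bort-treated library, 6.18-fold higher. ZFAND5, a related zinc finger protein that stimulates the 26S particle, was at 5.14 and 22.9 FPKM. TXNL1, a thioredoxin-like protein bound to the 19S particle, was at 4.12 and 13.4 FPKM. SEM1, the small lid subunit that the name rule does not take, was at 6.37 and 15.4 FPKM, 2.42-fold higher. The shuttle factors UBQLN1 (11.9 and 24.1 FPKM) and UBQLN2 (4.86 and 9.07 FPKM) and the deubiquitinase USP14 (33.4 and 56.6 FPKM) were also past 1.5-fold. Of the deubiquitinases bound to the 19S particle, USP14 was higher and UCHL5, at 17.1 and 10.9 FPKM, lower.

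All 8 genes of a list of regulators of proteasome genes were listed, 7 higher and 1 lower, with a median of 0.35. NFE2L1 itself was at 18.3 FPKM in the untreated and 23.2 FPKM in the bort-treated library, and its level of transcript does not show how much of the protein is processed. DDI2, the protease that cuts NRF1, was the lower gene, at 8.92 and 5.89 FPKM, and NGLY1, which removes its glycans, was at 7.89 and 11.2 FPKM. Of the small MAF partners, MAFF was at 0.476 and 1.22 FPKM, from a low level. It was the only regulator past 1.5-fold (12.5% of the list, beside 20.8% of all listed genes higher). MAFF reached 0.5 FPKM in the bort-treated library only. A filter at that level would list it only through the library where it was higher, so its difference is not read as a result. The count and median above include it. MAFG was at 25.4 and 36.6 FPKM. The median of the regulators lay below that of all members, 0.43, and that of the lid members, 0.72. It was close to that of the base non-ATPase genes, 0.33. With the GC trend removed, the median of the regulators was 0.35, beside 0.30 for all members and 0.49 for the lid members.

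Genes of antigen processing, which share interferon control with the immunoproteasome, went both ways. Of 14 genes 9 were listed, 4 higher and 5 lower, with a median of -0.078. A gene among the higher ones reached 0.5 FPKM in the bort-treated library only. By 1.5-fold or more, 2 were higher (22.2%, beside 20.8% of all listed genes) and 2 lower (22.2%, beside 21.6%). TAP2 was at 10.4 and 4.98 FPKM, and TAP1, whose start lies beside that of PSMB9, at 1.89 and 1.07 FPKM. In contrast, HLA-E was at 11.3 and 29.9 FPKM and B2M at 7.41 and 17.3 FPKM. The shares of the list past 1.5-fold lay close to those of all listed genes, so no pattern around PSMB10 is read from it.

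Since most subunit genes were higher together, the letters of their promoters were searched. RefSeq windows (GRCh38.p14, 250 bases before to 50 after a start) were given for 41 of the 47 members, and a gene with several starts was counted once. The core of the antioxidant response element, TGACNNNGC, which NRF1 and NRF2 bind with small MAF proteins, was found on either strand for 16 of 41 members (39.0%), beside 16.1% of all 27305 genes with a window and 19.5% of the 8544 listed ones. The members with this motif had a median difference of 0.44, with 12 of 16 higher, and the 25 members without it one of 0.45, with 20 higher. The medians with and without these letters thus lay close together. CCAAT, the box bound by NF-Y, was found for 20 members (48.8%) beside 43.7% of listed genes. The core of the interferon-stimulated response element, searched as a pair of TTTC words with 2 bases between them, was found for 6 members (14.6%) beside 3.58% of listed genes. These 6 were PSMA4, PSMB4, PSMB10, PSME1, PSME2 and PSMG4, 3 of them higher and 3 lower. No CCAAT match overlapped a TGACNNNGC match in a member window. A match is a description of letters and not evidence of binding.

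Matches to TGACNNNGC are shown in capitals for 10 members, read so that the motif runs 5′ to 3′ with 6 bases on each side. They include higher genes (PSMA4, PSMB3, PSMC4, PSMC5, PSMD12, PSME4 and PSMG2), a nearly level gene (PSMD3) and lower genes (PSMD9 and PSMG1), so that the element can be compared across directions. Matches of ADRM1, PSMB9, PSMD1, PSMD5, PSME1 and PSME2, and a further match each of PSMD3 and PSMD9, are not shown.
PSMA4, chr15:78540654-78540674: gcacgaTGACTCTGCaccgcc
PSMB3, chr17:38752631-38752651: ccgtttTGACTTTGCaaccaa
PSMC4, chr19:39971186-39971206: ccatagTGACCAAGCcggcct
PSMC5, chr17:63827658-63827678: cggcgcTGACACAGCagatcc
PSMD12, chr17:67366728-67366748: aaaaccTGACGCTGCaggctg
PSMD3, chr17:39980764-39980784: ctttgtTGACTCGGCcatcgg
PSMD9, chr12:121888682-121888702: ttccggTGACCCAGCtccgcc
PSME4, chr2:53971013-53971033: tgctggTGACGCTGCagccgc
PSMG1, chr21:39183620-39183640: agggcaTGACAGCGCgggcgg
PSMG2, chr18:12658693-12658713: ttcccgTGACCCCGCggccgc

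The 250 bases before the start are shown for 5 members, 5′ to 3′ on the strand of the gene, with matches to any of the 3 motifs in capitals. PSMD12 and PSMB3 are higher genes with TGACNNNGC, PSMA1 is the member with the largest positive difference, and PSMB10 and PSME3 are the members with the largest negative differences.
PSMD12, chr17:67366578-67366827, minus strand: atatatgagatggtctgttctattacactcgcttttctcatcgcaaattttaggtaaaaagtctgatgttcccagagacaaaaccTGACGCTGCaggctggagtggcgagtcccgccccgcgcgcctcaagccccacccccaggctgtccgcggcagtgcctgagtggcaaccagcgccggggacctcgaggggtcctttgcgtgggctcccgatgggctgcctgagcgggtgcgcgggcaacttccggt
PSMB3, chr17:38752491-38752740, plus strand: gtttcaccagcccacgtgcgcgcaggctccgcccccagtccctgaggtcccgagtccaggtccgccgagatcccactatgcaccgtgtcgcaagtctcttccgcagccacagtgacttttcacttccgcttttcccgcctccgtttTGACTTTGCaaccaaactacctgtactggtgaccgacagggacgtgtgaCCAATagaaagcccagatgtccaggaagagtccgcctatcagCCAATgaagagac
PSMA1, chr11:14520387-14520636, minus strand: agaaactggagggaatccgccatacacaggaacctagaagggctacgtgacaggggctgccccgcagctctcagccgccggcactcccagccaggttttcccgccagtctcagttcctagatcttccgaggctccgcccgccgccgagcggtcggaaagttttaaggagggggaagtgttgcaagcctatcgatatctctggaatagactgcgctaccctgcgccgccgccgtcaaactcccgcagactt
PSMB10, chr16:67936851-67937100, minus strand: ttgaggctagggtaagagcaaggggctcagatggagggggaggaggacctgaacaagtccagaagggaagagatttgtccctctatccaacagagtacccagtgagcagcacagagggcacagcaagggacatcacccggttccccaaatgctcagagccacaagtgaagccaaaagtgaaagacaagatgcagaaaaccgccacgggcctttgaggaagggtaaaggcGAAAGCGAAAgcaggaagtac
PSME3, chr17:42833147-42833396, plus strand: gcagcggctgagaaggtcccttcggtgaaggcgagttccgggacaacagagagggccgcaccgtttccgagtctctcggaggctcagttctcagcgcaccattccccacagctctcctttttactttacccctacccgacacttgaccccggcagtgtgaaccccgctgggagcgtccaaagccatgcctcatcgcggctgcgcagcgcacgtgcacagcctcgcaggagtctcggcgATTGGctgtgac

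In these windows PSMD12 held a match to TGACNNNGC at position -165 from its start and PSMB3 at -104, where PSMB3 also held CCAAT at -55 and -13. PSMB10 held the reverse of the paired TTTC motif at -21, and PSME3 the reverse of CCAAT at -12. No searched motif was found in the window of PSMA1.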

How the data were processed

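RNA of 2 cultures labelled THP1, 1 labelled as treated with bort for 24 h and 1 untreated, was sequenced by the authors from poly-A libraries on a HiSeq 4000. The methods name a KAPA stranded kit and the labels a TruSeq kit. Alignment by the authors was with HISAT2 2.0.4 and assembly with StringTie 1.2.3. Deposited values are in FPKM. The submitters' processing notes name GRCh37. Every gene reached 0.501 FPKM or more in at least 1 library, as a filter at 0.5 FPKM would give. FPKM values were not rescaled. No read counts were used, and the low values of genes with a single transcript fell on no common step, so depth is unknown.

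Differences are log2(FPKM + 1), bort minus untreated. Thresholds were 2-fold, the study's, and 1.5-fold. With 1 library per condition no test was run. All members may be named, and in other lists the genes past 1.5-fold and those at the ends of the range; NFE2L1, NGLY1, MAFG and TAP1 were named after their values were seen. The values of 2 genes of these lists are not reported here. The members and lists were chosen with earlier results of these data known. GC content is the median over a gene's GENCODE 29 transcripts, and its trend was removed by a lowess fit of span 0.3. Alternatives were pseudocounts of 0.1 and 0.5 FPKM and none, a filter of 1 FPKM, 3 scalings and GC removal. Calculations were tested on simulated data. Python 3.11.15, pandas 2.3.3 and statsmodels 0.14.6 were used.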

Additional observations from a re-analysis of the deposited data

How the results depend on the processing

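No paired analysis was possible because there is 1 library on each side, which also leaves none to omit. Under the 8 alternative settings, 43 of the 47 members kept their direction in each that gave a value (PSMB9 had none with the 1 FPKM filter), and POMP, PSMA2, PSMA3 and PSMC3 did not. POMP became -0.059 with the GC trend removed. The median of the alpha genes became 0.13 with the GC trend removed, and the mean of the beta genes was 0.24 because PSMB10 and PSMB9 weigh on it. Scaling to the upper quartile or to the FPKM outside the 20 highest genes moved the median of all genes by 0.089 and 0.088. In each of these, 6 members were higher by 2-fold, beside 1092 and 1087 of all listed genes. The median of the activators was -0.18 in each. Among all genes, 1576 were higher by 2-fold with a pseudocount of 0.1 FPKM, 1654 higher and 1708 lower with none, and 690 lower with the GC trend removed. Checks on 2 smaller sets of members were added after seeing the data. Among the 35 members without a named pseudogene, 10 were higher by 1.5-fold (28.6%, beside 20.8% of all listed genes). Among the 34 without a same-strand overlap, 1 was higher by 2-fold (2.94%, beside 8.08% of all listed genes). The interquartile range of the log2 levels, used in place of the standard deviation, differed by 0.079 for the core and -0.40 for the 19S particle, bort minus untreated. For the core the direction thus depended on the measure. The cause was not tested except where stated. As depth is not known, no difference of a gene with low FPKM, such as PSMB9, can be set against counting error.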
